A study of Mus musculus with 6 samples.

Results

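Calcium- and sodium-activated potassium channels were followed through 8 genes in lumbar dorsal root ganglia of mice with a floxed Scn9a gene. The genes were the SK channel genes Kcnn1, Kcnn2 and Kcnn3, the IK channel gene Kcnn4, the BK pore gene Kcnma1 with its subunit gene Kcnmb4, and the sodium-activated channel genes Kcnt1 and Kcnt2. They were chosen by family, as the rows carrying their NCBI gene identifiers, and with earlier results of these data known. They are 8 of 36528 listed genes. All 6 libraries came from female mice of 12 to 18 weeks with the genotype Scn9a loxP/loxP, and each library held the 6 lumbar ganglia of 1 mouse. The 3 control mice were pCAAG.Cre.ER negative and the 3 CreER-positive mice, which form the knockout group, were pCAAG.Cre.ER positive. The series title calls the knockout global, and no sensory neuron promoter is named for CreER. The controls carry the floxed alleles but no CreER. Whether and when tamoxifen was given, and whether controls received it, is not given in the sources used here. Replicate numbers follow the order of deposit and only name the libraries. The comparison asks which transcripts differ between ganglia of the knockout group and those of littermates.

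These channels let potassium leave the cell after calcium or sodium has entered it, and so shape the pause that follows an action potential. SK and IK channels are opened by calcium through bound calmodulin and do not need depolarization, BK channels need both calcium and depolarization, and KCNT channels open when sodium builds up inside the cell. In sensory neurons BK and KCNT1 are known for limiting repetitive firing of nociceptors, and IK is best known from red blood cells and immune cells.

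Total counts ranged from 40237131 to 63332040 per library. All 12 pan-neuronal markers were tested and summed to between 10076 and 12647 CPM (counts scaled to library size, with TMM factors), while 5 of 7 spinal cord markers, among them Mnx1, averaged under 1 CPM. Scn9a itself ranged from 557 to 635 CPM in controls and from 565 to 620 CPM in those with CreER. The gene-level count includes reads outside any deleted exon and does not check the genotype. Control replicate 2 had the highest muscle marker sum (119 CPM, against 53.9 to 67.7 CPM elsewhere). CreER-positive replicate 3 had the highest fibroblast (1583 CPM), immune (67.7 CPM) and red cell (83.9 CPM) marker sums and the lowest pan-neuronal sum.

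Kcnn1, which encodes SK1 and showed the largest fall of the 8 genes, has 2 transcription starts in the RefSeq promoter table, and gene-level counts sum the transcripts of all starts. The 250 bases upstream of each of these starts are shown because transcripts from both enter the count that fell. Both windows lie inside the annotated span of the gene, which reaches 70865691 on chromosome 8, so transcripts that begin further upstream may be counted too. They are RefSeq windows of GRCm38.p6 on the minus strand, chr8:70863259-70863508 for the upstream start and chr8:70857009-70857258 for the downstream start. Capitals mark matches, on either strand, to the GC box GGGCGG or the cyclic AMP response half-site TGACG.
Kcnn1 upstream start: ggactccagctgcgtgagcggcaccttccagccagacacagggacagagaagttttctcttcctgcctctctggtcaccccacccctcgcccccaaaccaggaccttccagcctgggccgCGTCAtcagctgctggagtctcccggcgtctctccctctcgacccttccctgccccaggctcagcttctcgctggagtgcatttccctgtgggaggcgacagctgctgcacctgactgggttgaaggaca
Kcnn1 downstream start: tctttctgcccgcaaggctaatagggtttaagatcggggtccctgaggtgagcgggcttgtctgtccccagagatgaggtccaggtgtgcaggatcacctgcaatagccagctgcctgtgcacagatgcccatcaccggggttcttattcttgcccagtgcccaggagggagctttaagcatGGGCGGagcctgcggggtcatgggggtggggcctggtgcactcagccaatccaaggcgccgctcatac
The upstream window had 1 match to TGACG and 0 to GGGCGG, and the downstream window had 1 match to GGGCGG and 0 to TGACG. Neither window matched TATAAA or CACGTG. Among all 32851 windows of this length in the table, 32.7% held GGGCGG, 17.8% TGACG, 12.4% TATAAA and 6.02% CACGTG. The windows had a GC content of 63.6% and 60.4%, against a median of 52.4% over all windows. These matches describe the letters only, and the data do not separate transcripts by their start.

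Of the 8 genes, all of which passed the filter on low counts, 2 fell in the CreER-positive ganglia, Kcnn1 and Kcnt1, and 0 rose. The test was the quasi-likelihood test of edgeR, with p adjusted after Benjamini and Hochberg over all 22043 tested genes and a threshold of 0.05. It called 0.726% of those genes, 0.563% as lower and 0.163% as higher. The estimate was negative for 6 of the 8 and positive for 2. Their median log2 fold change was -0.13, beside 0.00 over all tested genes. Control and CreER-positive CPM were fully separated for 5 of them (Kcnn1, Kcnn3, Kcnma1, Kcnmb4 and Kcnt1), against a background of 15.9%. The same 5 had an unadjusted p under 0.05, against 10.6% of tested genes. The 8 were chosen with earlier results of these data known, so these shares are not those of a blind choice. DESeq2, which called 2.27% of the genes it tested, and limma-voom, which called 0.721%, each called 2 of the 8, Kcnn1 and Kcnt1.

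**Figure D1:**
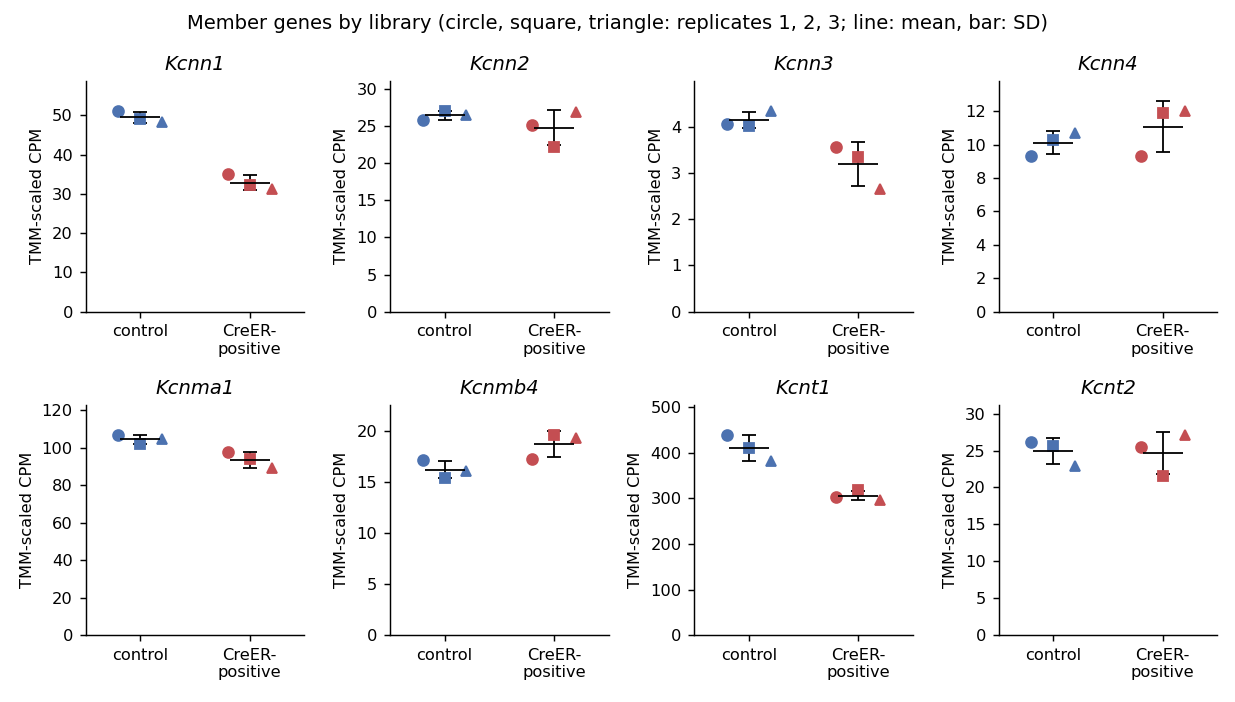
TMM-scaled CPM of the 8 channel genes in each library, with control libraries in blue and CreER-positive libraries in red, the mean as a line and the SD as a bar (n = 3). Kcnn1 and Kcnt1 were lower in every CreER-positive library than in any control library, while the groups overlapped for Kcnn2, Kcnn4 and Kcnt2.

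Kcnn1 (NCBI gene 84036, chromosome 8, 70843158 to 70865691) encodes the pore-forming subunit of SK1. It had 51.0, 49.1 and 48.2 CPM in control replicates 1 to 3 and 35.0, 32.3 and 31.2 CPM in CreER-positive replicates 1 to 3. The groups lay 13.1 CPM apart at their nearest libraries, several times the SD within either group. The means were 49.5 ± 1.47 and 32.9 ± 1.98 CPM (SD, n = 3), and the level fell by 33.5%. On the log2 scale the change was -0.59 ± 0.06 (SE; 95% interval -0.72 to -0.45), at an edgeR adjusted p of 0.00268. It ranked 25th of the tested genes by p. The call held in all 17 alternatives, with estimates from -0.69 to -0.55, including each fit without 1 library. No other listed gene overlaps its span.

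Kcnn2 (chromosome 18, 45268750 to 45685887), the SK2 gene, had 25.8, 27.0 and 26.5 CPM in controls and 25.2, 22.2 and 26.9 CPM with CreER. CreER-positive replicate 2 was the lowest library and replicate 3 lay among the controls, so the groups overlapped. The log2 fold change was -0.10 (95% interval from -0.26 to 0.07, edgeR adjusted p 0.731), which leaves a change as large as that of Kcnn1 outside the interval. The long noncoding gene A330093E20Rik overlaps Kcnn2, and its count was 22.9% to 28.1% as large as that of Kcnn2. With no strand setting stated, reads there cannot be assigned to 1 of the genes.

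Kcnn3 (chromosome 3, 89520164 to 89672494), the SK3 gene, had the fewest counts of the 8, with 141 to 274 counts per library. It had 4.06, 4.01 and 4.33 CPM in controls and 3.57, 3.35 and 2.65 CPM with CreER. All CreER-positive libraries were below all controls, with replicate 3 lowest. The log2 fold change of -0.37 ± 0.13 (SE) did not pass (edgeR adjusted p 0.338), and its 95% interval from -0.67 to -0.08 includes the estimate for Kcnn1.

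Count ratios within a library do not depend on library scaling and compare the change of 1 SK gene with that of another. There were 1.98, 1.82 and 1.81 Kcnn1 counts per Kcnn2 count in the controls and 1.39, 1.45 and 1.16 in the CreER-positive libraries. All 3 CreER-positive values lay below all controls, with replicate 3 lowest. On the log2 scale this ratio was lower by a difference of -0.49 ± 0.11 (SE). The exact two-sided permutation p was 0.1, the smallest that 3 animals against 3 allow, and 0.167 adjusted over the 5 ratios computed. For Kcnn1 against Kcnn3 the difference was -0.21 ± 0.11, with overlapping groups and an exact permutation p of 0.2. The 95% intervals of Kcnn1 and Kcnn3 also overlapped, so a difference between SK1 and SK3 in their change was not detectable with 3 animals a group. Kcnn2 against Kcnn3 gave 0.28 ± 0.20 and an exact permutation p of 0.2, with CreER-positive replicate 3 (10.1 Kcnn2 counts per Kcnn3 count) far above the other libraries (6.12 to 7.06). Without that library the difference was 0.095.

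**Figure D2:**
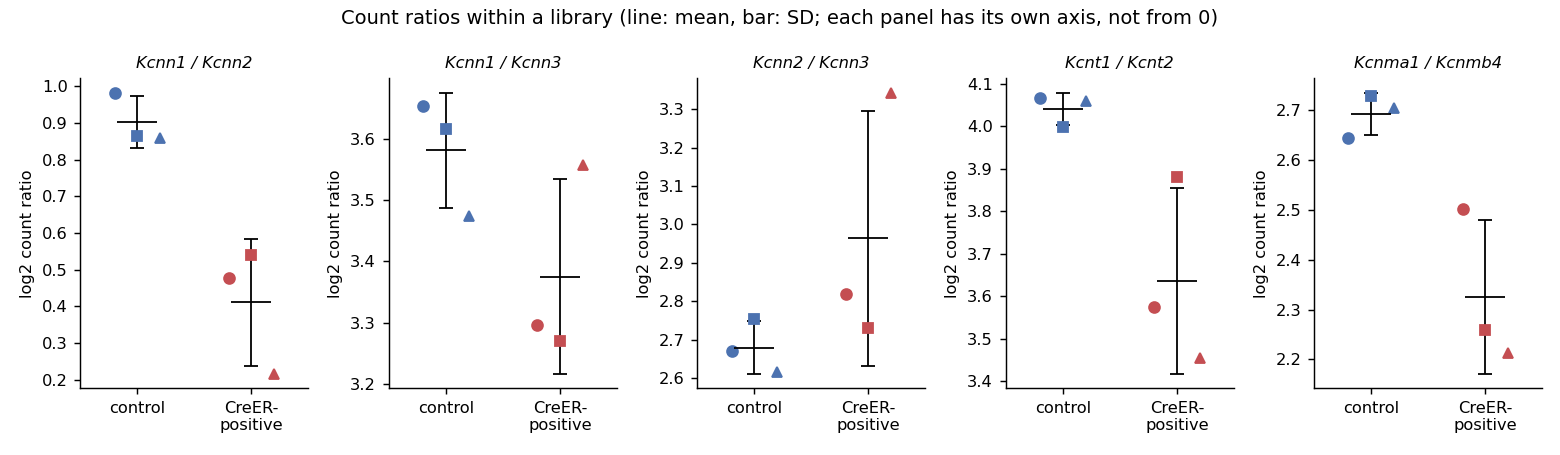
Log2 ratio of the counts of 2 channel genes within each library, controls in blue and CreER-positive libraries in red, with the mean as a line and the SD as a bar (n = 3). The groups did not overlap for Kcnn1 to Kcnn2, Kcnt1 to Kcnt2 and Kcnma1 to Kcnmb4, and overlapped for the other ratios.

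Kcnn4 (chromosome 7, 24369826 to 24385212) encodes the IK channel. It had 9.35, 10.3 and 10.7 CPM in controls and 9.30, 11.9 and 12.0 CPM with CreER. CreER-positive replicate 1 was the lowest of all 6 and the other CreER-positive libraries were the highest. Its change on the log2 scale was 0.13 (95% interval -0.12 to 0.37), at an edgeR adjusted p of 0.764. Because immune cells and red cells carry this channel, their marker sums are given beside it. No marker of the immune list (7 of 8 tested) or the red cell list (6 of 6 tested) was called. Immune markers summed to 35.2 to 48.4 CPM in controls and to 39.6, 38.9 and 67.7 CPM in CreER-positive replicates 1 to 3. Red cell markers summed to 33.4 to 44.8 CPM in controls and to 38.9, 35.9 and 83.9 CPM. In CreER-positive replicates 1 and 2, with 9.30 and 11.9 CPM of Kcnn4, both marker sums lay in the control range. In CreER-positive replicate 3, with 12.0 CPM of Kcnn4, both sums were the highest of all libraries. No listed marker was at 0 in all libraries. The part of these cells in the Kcnn4 counts was not tested.

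Kcnma1 (chromosome 14, 23292288 to 24005110) encodes the BK pore-forming alpha subunit. It had 107, 102 and 105 CPM in controls and 97.5, 93.8 and 89.3 CPM with CreER, so that the groups were separated by 4.55 CPM. The log2 fold change of -0.16 ± 0.05 (SE) did not pass (edgeR adjusted p 0.297), and its 95% interval ran from -0.28 to -0.04.

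Kcnmb4 (chromosome 10, 116417861 to 116473859) encodes beta4, a BK subunit found mainly in neurons that slows channel opening. It had 17.1, 15.4 and 16.1 CPM in controls and 17.2, 19.6 and 19.2 CPM with CreER. The lowest CreER-positive library lay only 0.110 CPM above the highest control. An estimate of 0.21 ± 0.07 (SE) on the log2 scale did not pass (edgeR adjusted p 0.352). The antisense-named genes Kcnmb4os1 and Kcnmb4os2 overlap Kcnmb4, with counts 32.4% to 35.4% and 30.4% to 33.7% as large. Their own log2 fold changes were 0.17 and 0.25, not called (edgeR adjusted p 0.641 and 0.444), and shared reads cannot be told apart.

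There were 6.25, 6.62 and 6.52 Kcnma1 counts per Kcnmb4 count in the controls and 5.66, 4.79 and 4.64 in the CreER-positive libraries. Every CreER-positive library had fewer pore-subunit counts per beta4 count than any control. The difference was -0.37 ± 0.09 (SE) on the log2 scale, with an exact two-sided permutation p of 0.1, the smallest possible, and 0.167 adjusted over the 5 ratios. After the counts of the overlapping genes were taken off those of Kcnmb4, an alternative chosen after seeing the data, the difference was -0.37.

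The other BK auxiliary subunits were described from a list of 7 genes, of which 4 had enough counts to be tested. Among them 1 was called lower and 0 higher. The called gene was Kcnmb1 (chromosome 11, 33962955 to 33973641), which encodes beta1, a subunit best known from smooth muscle that raises the calcium sensitivity of BK channels. It had 56.6, 40.8 and 44.5 CPM in controls and 26.0, 21.5 and 24.2 CPM with CreER. Its lowest control was far above its highest CreER-positive library, and this was a larger change than that of any of the 8 channel genes. The log2 fold change was -0.98 ± 0.12 (SE), with an edgeR adjusted p of 0.00583, and the call held in all 17 alternatives (adjusted p at most 0.0332).

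Kcnmb1 lies inside Kcnip1, the gene of a Kv4 channel partner, which spans 33629339 to 33993348 on the same chromosome and had 3841 to 6832 counts against 1287 to 2812 for Kcnmb1. Kcnip1 was also called lower (-0.54, edgeR adjusted p 0.0293), so reads shared by both cannot be assigned to 1 of them. For Kcnip1 the call ended when control replicate 1 (0.113), 2 (0.0559) or 3 (0.116), or CreER-positive replicate 2 (0.0861), was left out. It also ended with control replicate 2 and CreER-positive replicate 3 both left out (0.0522). Because beta1 is best known from smooth muscle, the 6 smooth muscle markers are given beside it. None was called, and their sum ranged from 60.4 to 67.3 CPM in controls and from 55.5 to 76.3 CPM with CreER, so the groups overlapped. Kcnmb1 had a control mean of 47.3 CPM, above that of each of these markers (0.556 to 24.1 CPM). The part of smooth muscle in the Kcnmb1 counts was not tested. Of the other tested subunits, Kcnmb2 had 0.14, Lrrc26 had -0.10 at about 0.6 CPM, and Lrrc55, a BK gamma subunit gene, had 0.44 (edgeR adjusted p 0.322).

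Kcnt1 (chromosome 2, 25863791 to 25918273) encodes the sodium-activated channel Slack. It had 439, 410 and 381 CPM in controls and 303, 317 and 297 CPM with CreER. The groups were separated by 63.7 CPM, and the controls spread more than the CreER-positive libraries. The means were 410 ± 29.0 and 306 ± 10.4 CPM (SD, n = 3), and the level fell by 25.4%. This is a log2 fold change of -0.42 ± 0.07 (SE; 95% interval -0.58 to -0.27), at an edgeR adjusted p of 0.0298. The call was lost without control replicate 1 (0.180), 2 (0.178) or 3 (0.0669), without CreER-positive replicate 1 (0.116) or 2 (0.0573), without control replicate 2 and CreER-positive replicate 3 both (0.0825), and when library size was taken from pan-neuronal marker counts (0.0635). It held without CreER-positive replicate 3 (0.0165), and the estimate stayed between -0.52 and -0.37 in all 17 alternatives.

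Kcnt2 (chromosome 1, 140245657 to 140614045) encodes the related channel Slick. It had 26.2, 25.7 and 22.9 CPM in controls and 25.4, 21.6 and 27.1 CPM with CreER, and CreER-positive libraries were both the lowest and the highest. Its log2 fold change was -0.01 (edgeR adjusted p 0.983), and the interval of -0.22 to 0.19 does not reach the estimate for Kcnt1. Its sign turned in 3 alternatives. The long noncoding gene 4930590L20Rik overlaps Kcnt2, with a count 55.3% to 60.3% as large, so the level of Kcnt2 itself is uncertain.

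There were 16.8, 16.0 and 16.7 Kcnt1 counts per Kcnt2 count in the controls and 11.9, 14.7 and 11.0 in the CreER-positive libraries. All CreER-positive values were lower, and replicate 2 came nearest to the controls. The log2 difference was -0.41 ± 0.13 (SE), with an exact two-sided permutation p of 0.1, the smallest possible, and 0.167 over the 5 ratios. With the counts of the overlapping gene taken off Kcnt2, also chosen after seeing the data, it was -0.39.

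**Figure D3:**
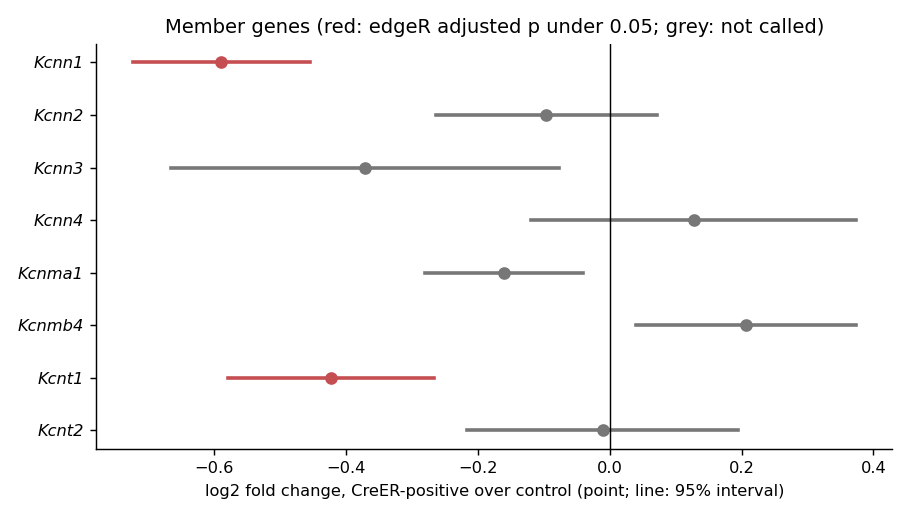
Log2 fold change of CreER-positive over control libraries for the 8 channel genes (points) with 95% intervals (lines), red where the edgeR adjusted p was under 0.05. Kcnn1 (-0.59) and Kcnt1 (-0.42) were called lower; the intervals of Kcnn3, Kcnma1 and Kcnmb4 also lie to 1 side of 0 but did not pass the adjustment over all genes.

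Among 3 listed binding partners of KCNT1, 1 was called lower and 0 higher. Ano3 (chromosome 2, 110655201 to 110950391), also known as TMEM16C, had 729, 694 and 668 CPM in controls and 547, 474 and 528 CPM with CreER. The groups did not overlap. Its log2 fold change of -0.43 ± 0.08 (SE) was close in size to that of Kcnt1, with an edgeR adjusted p of 0.0451. The call was lost without any 1 control (0.258, 0.233 and 0.147 for replicates 1 to 3), without CreER-positive replicate 1 (0.0810) or 2 (0.126), and without control replicate 2 and CreER-positive replicate 3 together (0.0765). It was also lost with library size from pan-neuronal markers (0.111). Muc15 lies inside Ano3 and had 605 to 885 counts against 28104 to 42238. Fmr1 (-0.01) and Cyfip1 (-0.01), the fragile X protein and its partner, were not called.

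The marker lists of sensory neuron classes differed in direction. Of 6 markers of C-fibre low-threshold mechanoreceptors 4 were called lower (Slc17a8 -1.38, Pou4f2 -0.75, Th -0.53 and Tafa4 -0.50), and their sum was 447 to 463 CPM in controls and 303 to 378 CPM with CreER. Of 11 markers of non-peptidergic nociceptors and itch neurons 3 were called lower, with sums of 3113 to 3178 and 2568 to 2839 CPM. The called genes were Mrgprd (-1.22), Prkcq (-0.68) and Plxnc1 (-0.43), while 4 of the 11 had a positive estimate. Those 4 were P2rx3 (0.08), Gfra1 (0.09) and the itch neuron receptor genes Mrgpra3 and Mrgprx1. Neither P2rx3 nor Gfra1 was called by edgeR or DESeq2. Mrgpra3 was higher in every CreER-positive library than in any control, with a log2 fold change of 0.29 that passed in DESeq2 (adjusted p 0.0251) and not in edgeR (0.111). Mrgprx1 had 0.15 (edgeR adjusted p 0.532). For the 7 markers of peptidergic nociceptors the sum was 2224 to 2568 CPM in controls and 2668 to 2873 CPM with CreER, the opposite direction to the channel genes that fell. Calca was the largest part of this sum, with means of 1343 CPM in controls and 1595 CPM with CreER. The median log2 fold change of the 7 markers was 0.15, and 5 were positive, while Calcb (-0.12) and Gal (-0.03) were negative. In edgeR 0 of the 7 passed (4 before adjustment at 0.05), and in DESeq2 1 passed, Tac1, the substance P precursor gene (0.39, edgeR adjusted p 0.0651). In these 3 lists the sums of the groups did not overlap, and no marker was at 0. The 10 A-fibre markers had 5 positive and 5 negative estimates and 0 calls by edgeR and by DESeq2, with 3 at an unadjusted p under 0.05, and their sums overlapped. Pan-neuronal sums overlapped, at 10246 to 11551 and 10076 to 12647 CPM. The part of these neuron classes in the lower channel counts was not tested. In such bulk samples fewer cells of a type and less RNA per cell cannot be told apart.

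Genes around the channels, among them those that supply, store or remove calcium and sodium, were described in 9 lists. Over all 9 lists around the channels, 73 of 78 genes were tested, 3 were called lower, among them Kcnmb1 and Ano3, and 0 higher, a share of 4.11% beside the background of 0.726%. Their groups did not overlap for 24.7%, beside 15.9% of all tested genes, and their median log2 fold change was -0.05. An unadjusted edgeR p under 0.05 was found for 27.4% of them, beside 10.6% of all tested genes. The lists were chosen with earlier results of these data known.

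The 8 genes of the SK complex, calmodulin and the kinase CK2 and phosphatase PP2A subunits that tune it, had a median of 0.03 and 0 calls by edgeR, and DESeq2 called 0, with 0 genes under 0.05 before adjustment. Csnk2b, with the smallest p of the list, had 0.13 ± 0.06 (edgeR adjusted p 0.698).

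Of 10 voltage-gated calcium channel genes 9 had a negative estimate (10 with upper-quartile, total-count or pan-neuronal scaling), the median was -0.18, and 0 were called by edgeR. At an unadjusted p under 0.05 there were 3, and DESeq2 called 2, Cacna1h and Cacna1i. Cacna1h, a T-type channel gene that opens at low voltage, had -0.35 ± 0.07 (SE) and an edgeR adjusted p of 0.0530. In edgeR it passed with upper-quartile factors (0.0418), total counts alone (0.0211), a stricter count filter (0.0449) and robust fitting (0.0421). It also passed without CreER-positive replicate 3 (0.0164), and in no other edgeR alternative. Cacna1i had -0.88 ± 0.18 (SE; edgeR adjusted p 0.0678). Cacna1i passed in edgeR only with library size from pan-neuronal markers (0.0313) and without CreER-positive replicate 1 (0.0147) or 3 (0.0234). Calcium store genes (11 tested, median 0.00) and calcium pumps, exchangers and buffers (13 tested, median -0.07) also had 0 calls by edgeR and by DESeq2, with 1 and 3 genes at an unadjusted p under 0.05. Orai3, a store-operated channel gene, had 0.20, and Slc8a1, the sodium-calcium exchanger gene, had -0.23. Atp2a1, 1 of the 3 removal genes, had 15.4 CPM in control replicate 2, the library with the highest muscle marker sum. In the other libraries it had 1.35 to 1.92 CPM. The calcium channel gene Cacna1s, with a negative estimate, was also highest there (1.25 CPM, against 0.123 to 0.391 CPM elsewhere).

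Of 8 sodium channel genes, which carry the sodium that opens KCNT channels, 7 had a negative estimate (8 with library size from pan-neuronal markers), with a median of -0.10. The 6 sodium pump genes, which remove that sodium, all had a positive estimate (4 of 6 with library size from pan-neuronal markers), with a median of 0.22 and 0 calls by edgeR. Before adjustment 3 of them were under 0.05, and 1 passed in DESeq2, Atp1b3 (0.23, edgeR adjusted p 0.194). Of 10 tested calcium-activated chloride and cation channel genes edgeR called 0 and DESeq2 2, in opposite directions, and 4 were under 0.05 before adjustment. Ano4 had -0.26 ± 0.06 (edgeR adjusted p 0.123, DESeq2 0.0408). Ano2, a calcium-activated chloride channel gene, had 0.443, 0.506 and 0.411 CPM in controls and 1.27, 0.684 and 1.64 CPM with CreER. At this low level the groups did not overlap, and its log2 fold change was 1.38 ± 0.33 (SE; edgeR adjusted p 0.133, DESeq2 0.0106).

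**Figure D4:**
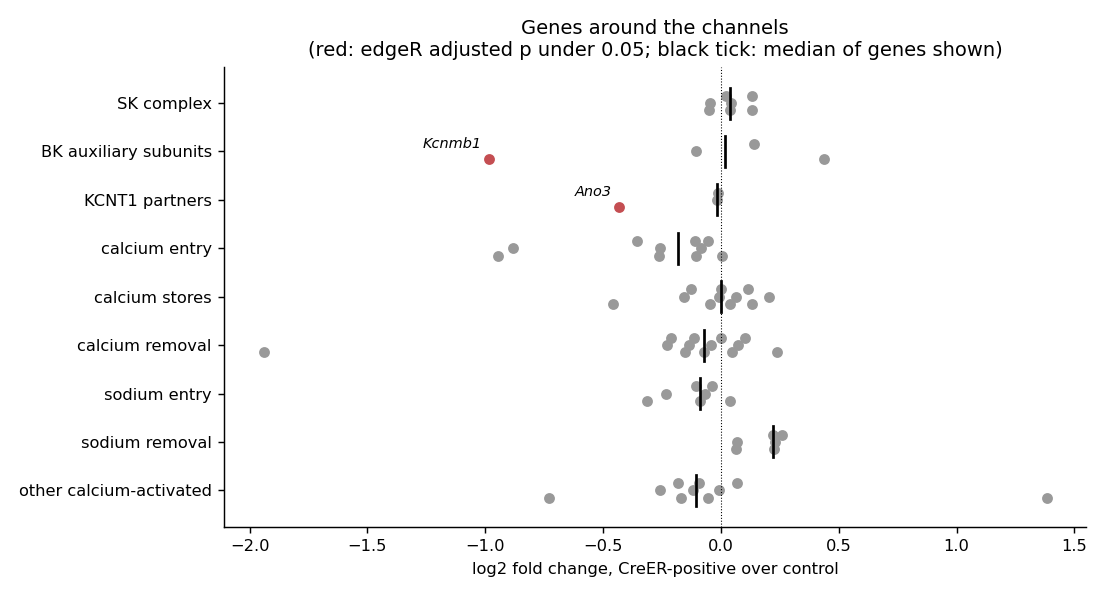
Log2 fold change of the tested genes reported here (points) in 9 lists around the channels, with the median of the genes shown as a black tick and genes with an edgeR adjusted p under 0.05 in red. Kcnmb1 (-0.98) and Ano3 (-0.43) were called lower, and all 6 sodium pump genes lie above 0 with TMM scaling (4 of 6 with library size from pan-neuronal markers).

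Levels of the 8 genes relative to each other depended on the length used. The authors' RPKM divides by the deposited gene width, which for 7 of the genes covers nearly the whole span in the annotation and for Kcnn2 30.6%. On that scale the control mean was highest for Kcnt1 (7.71 ± 0.580 RPKM, SD, n = 3) and Kcnn1 (2.36 ± 0.0800). Kcnn4 (0.673), Kcnmb4 (0.298), Kcnn2 (0.212), Kcnma1 (0.150), Kcnt2 (0.0693) and Kcnn3 (0.0278) followed, and the CreER-positive means had the same order.

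Exons make up only 1.79% to 33.2% of these spans. Because how reads were counted is not given, counts may include reads of introns or overlapping genes, and levels per exon length are uncertain. Per kilobase of annotated exon, the control CPM was again highest for Kcnt1 (43.2 ± 3.05 CPM per kilobase, SD, n = 3) and Kcnn1 (10.8 ± 0.320) and lowest for Kcnn3 (0.396 ± 0.0168). In controls Kcnma1 (6.16 ± 0.144) came next and lay above Kcnmb4 (4.87 ± 0.257) in every library. In the CreER-positive libraries Kcnma1 (5.51 ± 0.243) and Kcnmb4 (5.62 ± 0.388) overlapped and did not differ beyond their spread. Kcnt2 and Kcnn2 overlapped in both groups, at 3.61 ± 0.260 and 3.54 ± 0.0795 in controls and at 3.58 ± 0.413 and 3.32 ± 0.316 with CreER. Kcnn4 had 1.98 ± 0.137 and 2.16 ± 0.299. On both scales and in both groups Kcnt1 and Kcnn1, the 2 genes called lower, were also those with the highest level. In CPM, without division by length, Kcnma1, which was not called, lay above Kcnn1. Its means were 105 CPM in controls and 93.5 CPM with CreER, against 49.5 and 32.9 CPM for Kcnn1. The position of Kcnn4 and Kcnma1 turned with the length used.

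Genes with the most similar course over the 6 libraries were found among 13519 tested genes of at least 5 CPM, as the smallest root mean square distance between log2(CPM + 0.5) profiles centred on their own mean. For Kcnn1 these were Zdhhc23, a palmitoyltransferase gene (distance 0.046), Plaur, the urokinase receptor gene (0.055), and Rarres1 (0.058), beside a root mean square of 0.30 for the Kcnn1 profile itself. Zdhhc23 had 33.5, 29.9 and 32.1 CPM in controls and 23.1, 21.7 and 20.4 CPM with CreER. For Kcnt1 they were Cyp2j12 (0.039), Rgs5, a regulator of G protein signalling (0.042), and Syt7, a synaptotagmin gene (0.048). Syt7 had 632, 559 and 539 CPM in controls and 453, 437 and 438 CPM with CreER.

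The nearest genes to the uncalled members were Plekha6 to Kcnma1 (0.018), Vwa5a to Kcnmb4 (0.027), Necab3 to Kcnn3 (0.042), Gm13267 to Kcnn2 (0.020), Polr1b to Kcnn4 (0.032) and Cep44 to Kcnt2 (0.021). The second nearest to Kcnma1 was Kcnip2, the gene of a Kv4 channel partner (0.022), with 110, 109 and 111 CPM in controls and 101, 98.4 and 91.9 CPM with CreER. The distances are descriptions of 6 libraries.

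**Figure D5:**
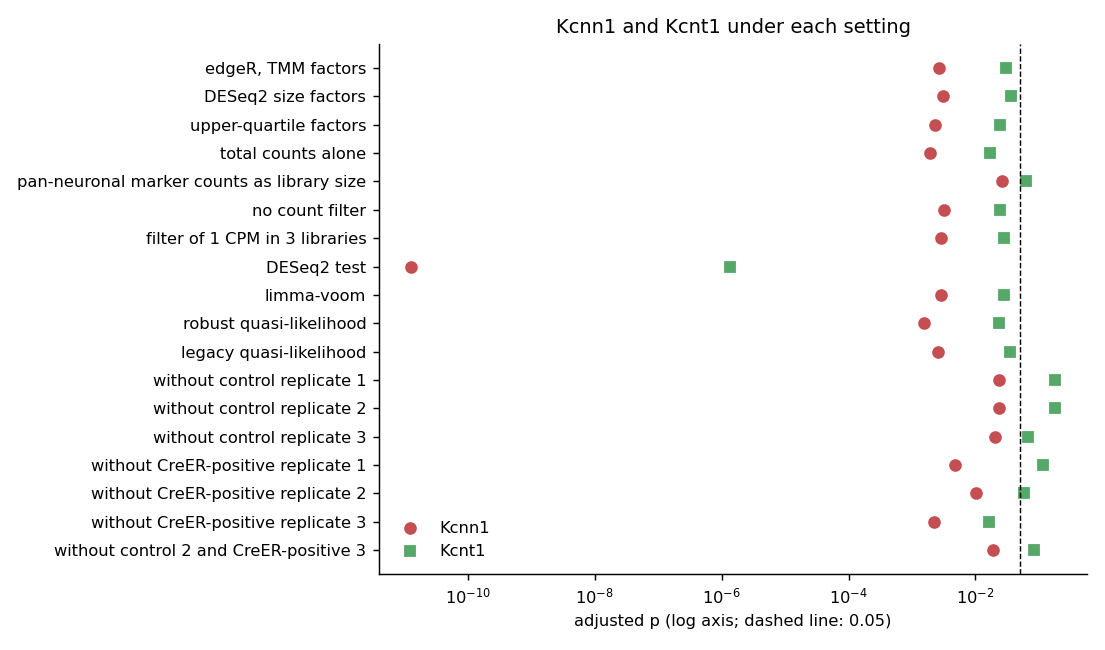
Adjusted p of Kcnn1 (circles) and Kcnt1 (squares) under the edgeR test with TMM factors and each of 17 alternatives, on a log axis with a dashed line at 0.05. Kcnn1 stayed below 0.05 in all of them (at most 0.0263), while Kcnt1 lay above it in 7.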

How the data were processed

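RNA of lumbar ganglia was sequenced, and the authors deposited for each library a table of whole-number counts, gene widths and RPKM values per NCBI gene, per the file headers. Reads were aligned with GSNAP to GRCm38 (mm10), per the submitters' processing notes. How reads were counted, on which annotation and with which strand setting, is not given in the sources used here. The deposited RPKM was used only to describe levels between genes.

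Identifiers were matched to GRCm38.p6 RefSeq symbols (31049 of 36528, and 1.91% of counts had none). Counts were filtered with filterByExpr, scaled with TMM and tested for the group with edgeR 4.0.16's quasi-likelihood test in R 4.3.3, with Benjamini-Hochberg adjustment over 22043 genes at 0.05. The SE is the log2 fold change over the square root of F. The common biological coefficient of variation was 8.99%. Ratios were tested by exact permutation (scipy 1.17.1). Exon lengths are unions of GENCODE exons on GRCm38. Alternatives were other scalings, filters and tools (DESeq2 1.42.0, limma 3.58.1), leaving out each library, and, added after seeing the data, dropping both control replicate 2 and CreER-positive replicate 3. On counts simulated for 22043 genes in 3 against 3 libraries, edgeR called 88% of the 1.5-fold changes and 100% of the 2-fold changes, and 11 of its 199 calls were false. The simulation gave every gene the same biological variation and held no outlying library, so these shares need not hold for the deposited counts. The members and lists were chosen with earlier results of these data known. Named genes were the 8 members, called genes of each pathway list or its gene with the smallest p, called markers, and the 3 nearest profiles of each member. Kcnip1, Muc15 and the noncoding genes were named for their overlap. Kcnmb2, Lrrc26, Lrrc55, Fmr1, Cyfip1, Cacna1i, Cacna1s, Atp2a1, Mnx1, Atp1b3, Ano2, Mrgpra3, Mrgprx1 and Tac1 were chosen for their role or after their values were seen. So were P2rx3, Gfra1, Calca, Calcb and Gal. Upstream sequences are from RefSeq, and 6 of the 8 members had one. Some genes that the naming rule takes are not reported here.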

Additional observations from a re-analysis of the deposited data

How the results depend on the processing

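Kcnn1 was called in all 17 alternatives. With control replicate 2 and CreER-positive replicate 3 both left out, or with pan-neuronal marker counts as library size, 1 of the 8 channel genes was called, Kcnn1, in place of 2. Without any 1 library the count was 1 to 2. The count of called genes in the lists around the channels was 10 by DESeq2 in place of 3, and 1 to 8 without any 1 library. It was 8 without CreER-positive replicate 3, and 1, Kcnmb1, without control replicate 1, 2 or 3. Calls over all tested genes moved too, from 160 to 420 by DESeq2 and to 568 without CreER-positive replicate 3. Without control replicates 1, 2 and 3 they fell to 71, 60 and 73. The estimate for Kcnt2, which was never called, ranged from -0.082 to 0.079 without any 1 library and was positive when control replicate 1 (0.03), control replicate 2 (0.01) or CreER-positive replicate 2 was dropped. Of 136 fits of a single channel gene, 126 kept direction and side of the threshold. The 7 that lost the call were all of Kcnt1, and the 3 that changed sign were of Kcnt2. Most fits were of the 6 genes never called, so this share says little about the 2 calls. Over all alternatives no ratio difference changed sign, and none moved by more than the SD pooled over both groups, which the wider CreER-positive spread dominates. Set against the smaller control SD, some moved further. The difference for Kcnn2 to Kcnn3 went from 0.28 to 0.095 without CreER-positive replicate 3 and to 0.13 without that library and control replicate 2, at a control SD of 0.0694. For Kcnt1 to Kcnt2 it ranged from -0.53 to -0.31 (control SD 0.0381), for Kcnn1 to Kcnn2 from -0.56 to -0.39 (0.0699) and for Kcnma1 to Kcnmb4 from -0.46 to -0.29 (0.0431). The scaling by pan-neuronal markers moved the median of all genes to -0.094 on the log2 scale, against which Kcnn1 (-0.69) and Kcnt1 (-0.52) are to be read, and its calls over all genes were 8 higher and 85 lower in place of 36 and 124. No paired analysis was possible because the labels give no replicate numbers, those used here follow the order of deposit, and although the controls are littermates no label says which mice share a litter. Depth limits Kcnn3 most, with 141 counts in its smallest library.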
